A study of Mus musculus with 11 samples.

Results

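The 10 genes described here are regulators of fat-burning and heat-producing metabolism, chosen by name out of the 38393 genes in the files. They are 2 nuclear receptors (Pparg and Ppara), their coactivator Ppargc1a, the 3 uncoupling proteins (Ucp1, Ucp2 and Ucp3) and 4 genes known for high expression in, or control of, brown fat (Slc36a2, Elovl3, Cidea and Prdm16). All 10 symbols matched a gene identifier of the files. RNA was read from whole mouse eyes from which, by the study's methods, lens and cornea were removed. Retina, pigment epithelium, choroid, sclera and ciliary body were kept. The mice were C57BL/6 animals (C57Bl/6J in the study's methods) of 1 to 2 months, 5 of them wild type (WT replicates 1 to 5) and 6 homozygous for a constitutive deletion of the miR-211 precursor (miR-211-/-, KO replicates 1 to 6). No other allele and no treatment was given. By the study's methods the controls were littermates of matched age, all KO animals were male and the WT animals were of both sexes.

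PPARs are nuclear receptors that bind fatty acids and their derivatives, pair with RXR receptors on DNA and switch on genes of lipid storage and oxidation. PPARγ, from Pparg, is the master regulator of fat cell differentiation, and PPARα, from Ppara, drives fatty acid oxidation in liver, heart and muscle. Uncoupling proteins are carriers of the inner mitochondrial membrane. UCP1 lets protons return to the matrix and so releases heat in brown and beige fat cells, UCP3 is found mainly in skeletal muscle and brown fat, and UCP2 is widespread, the nervous system and immune cells included.

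Library totals ran from 20282241 expected counts in KO replicate 1 to 36317673 in KO replicate 2, and levels below are CPM, counts brought to a common library total with TMM factors, unless FPKM, which also divides by transcript length, is named. Rod and pigment epithelium markers identified the tissue, with a sum of 25461 to 40310 CPM. The lens and cornea markers ranged from 1180 to 65106 CPM, highest in WT replicate 4, where the lens channel gene Mip stood at 1252 CPM. That sum was mainly lens, with the crystallin gene Cryaa at 38276 CPM. The cornea keratin gene Krt12 was at 2949 CPM in WT replicate 4 and at 3031 CPM in WT replicate 2. In KO replicates 1, 2 and 3 it was at 3505, 3503 and 3154 CPM, and elsewhere at 4.25 to 708 CPM. The Mir211 precursor, too short for a kit made for long RNA, was listed at 0 in all 11 libraries and so did not check the labels. Its host gene Trpm1 was read at 330 to 494 CPM in WT and 412 to 464 CPM in KO. The level of Xist, an RNA made only in females, was 794 to 1632 CPM in WT replicates 1, 3 and 5. Elsewhere, in 8 libraries, it did not exceed 1.29 CPM. The libraries fall into 2 library series by the style of the column names to which they match in the study's own table, mouse-number (WT replicates 1 and 2, KO replicates 1 to 3) and age (WT replicates 3 to 5, KO replicates 4 to 6). What separates the series is not given in the sources used here.

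The deleted miRNA and its paralog are shown first because the genotype comparison rests on them, with the seed, bases 2 to 8, in capitals. The mature miR-211-5p lies at chr7:64205831-64205852 on the plus strand (GRCm38.p6), within an intron of Trpm1, and miR-204-5p at chr19:22750610-22750631.
mmu-miR-211-5p: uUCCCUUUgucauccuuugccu
mmu-miR-204-5p: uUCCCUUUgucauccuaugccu
The sequences, from RefSeq, share their seed and differ at 1 base, position 17 from the 5′ end. The complement of the seed, AAAGGGA, was searched on the sense strand of the longest annotated 3′ untranslated region of each gene. It occurred in 4 of the 10 genes, against 14.9% of 21037 genes with such a region, and it occurred once in each of the 4, shown here with the match in capitals.
Ppargc1a: cctcactgagctaatAAAGGGA
Ucp1: cttttaattttttttAAAGGGA
Ucp2: ccccagtgtctttaaAAAGGGA
Ucp3: agtcttccatctgcaAAAGGGA
The regions searched were 3930 bases long for Ppargc1a, 481 for Ucp1, 2670 for Ucp2 and 1324 for Ucp3, beside a median of 960 bases over all genes. No match stood in the regions of Pparg (204 bases), Ppara (1561), Slc36a2 (874), Elovl3 (892), Cidea (262) or Prdm16 (4785). A match of letters is not a shown target.

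The windows of 250 bases before the starts of the 3 uncoupling protein genes are printed for 2 reasons. All 3 had WT replicates 1, 2 and 4 and KO replicate 1 as their highest libraries, and Ucp2 lies next to Ucp3. The core hexamer of nuclear receptor sites, AGGTCA, is in capitals where it occurs on either strand. The windows, all on the plus strand of GRCm38.p6 and from RefSeq, are chr8:83290098-83290347 for Ucp1, chr7:100472741-100472990 for Ucp3 and chr7:100493108-100493357 for Ucp2.
Ucp1: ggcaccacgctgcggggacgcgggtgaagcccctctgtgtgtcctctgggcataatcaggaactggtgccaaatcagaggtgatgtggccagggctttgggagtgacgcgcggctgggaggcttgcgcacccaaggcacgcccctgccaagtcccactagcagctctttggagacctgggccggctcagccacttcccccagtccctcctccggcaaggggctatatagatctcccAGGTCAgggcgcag
Ucp3: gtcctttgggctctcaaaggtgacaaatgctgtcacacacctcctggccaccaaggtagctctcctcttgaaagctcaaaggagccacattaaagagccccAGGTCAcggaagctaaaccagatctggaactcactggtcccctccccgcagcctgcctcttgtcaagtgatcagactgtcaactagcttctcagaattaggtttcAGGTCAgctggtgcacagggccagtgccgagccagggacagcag
Ucp2: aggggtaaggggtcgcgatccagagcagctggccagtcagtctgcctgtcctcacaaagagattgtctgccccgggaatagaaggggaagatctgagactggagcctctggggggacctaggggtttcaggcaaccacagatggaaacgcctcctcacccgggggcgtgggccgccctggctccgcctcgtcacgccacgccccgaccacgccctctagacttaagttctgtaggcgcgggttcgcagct
The Ucp1 window held 1 hexamer, beginning 14 bases before the start, and the Ucp3 window held 2, beginning 149 and 44 bases before it. The Ucp2 window held none. Of all 32851 windows of this length, 14.0% held the hexamer. The direct repeat that PPAR and RXR bind, searched on both strands as AGGNCANAGGNCA, was in 0.338% of all windows and in none of the 9 windows of the 7 genes matched (Pparg, Ppara, Ppargc1a, Ucp1, Ucp2, Ucp3 and Prdm16). It is known from textbook work that the receptor sites of mouse Ucp1 lie in an enhancer farther upstream, which this window does not reach.

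Measured per transcript length, the uncoupling proteins held both the highest and nearly the lowest place among the 10 genes. Ucp2 led with a median of 59.6 FPKM over the 11 libraries (range 52.6 to 78.9), and Ppargc1a followed with 12.02 FPKM (8.40 to 14.2). These 2 ranges did not overlap each other or that of Ppara, at 4.62 FPKM (3.38 to 6.03). From there on each range overlapped the next. Prdm16 had a median of 2.92 FPKM, Ucp3 2.48, Cidea 1.37, Slc36a2 0.75, Pparg 0.62, Ucp1 0.14 and Elovl3 0.04. Prdm16 was above Ucp3 in 5 of 11 libraries, Slc36a2 above Pparg in 7 and Cidea above Slc36a2 in all 11. Medians hid the upper ends: Ucp1 reached 24.9 FPKM, Cidea 24.4, Elovl3 20.02 and Ucp3 12.9. In the library where each was highest, Ucp1, Cidea and Elovl3 therefore exceeded every level of Ppargc1a.

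**Figure D1:**
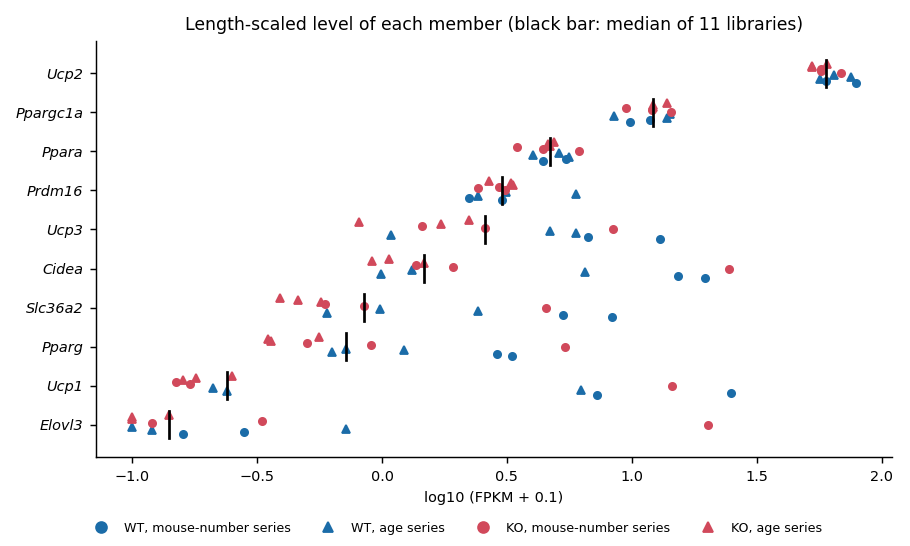
FPKM of the 10 genes in each of the 11 libraries, on a log10 axis after adding 0.1, with colour for genotype, shape for library series and a black bar at the median. Ucp2, Ppargc1a and Ppara form narrow groups, whereas Ucp1 spreads from 0.05 to 24.9 FPKM and Elovl3 from 0 to 20.02 FPKM.

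Ppara and Ppargc1a were steady across the eyes. Ppara was at 12.95, 17.1, 15.6, 13.4 and 15.2 CPM in WT replicates 1 to 5 and at 11.4 CPM at the lowest, 13.8 at the median and 19.7 at the highest of the KO libraries. Ppargc1a was at 56.2, 67.9, 71.0, 56.5 and 75.7 CPM in WT and at 54.0, 65.9 and 78.0 CPM at the lowest, median and highest KO library. In both genes the genotypes overlapped and KO replicate 1 was the highest library, and the highest library exceeded the lowest by 1.73-fold for Ppara and 1.45-fold for Ppargc1a.

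Pparg behaved otherwise. It was at 5.63, 5.03, 0.905, 2.35 and 1.08 CPM in WT replicates 1 to 5, and at 0.430, 0.752 and 9.52 CPM at the lowest, median and highest KO library. WT replicates 1, 2 and 4 and KO replicate 1 were its 4 highest libraries, and the other 7 stayed at or below 1.43 CPM.

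Ucp1 followed the same 4 libraries and was close to absent elsewhere. Its counts were 322, 982, 5, 227 and 4 in WT replicates 1 to 5, and 464, 4, 2, 2, 3 and 6 in KO replicates 1 to 6. The 4 libraries lay between 11.4 and 40.2 CPM, while the other 7 lay between 0.0861 and 0.233 CPM, in part at or under the level of 3 counts, which is 0.0822 to 0.150 CPM. In 3 of 5 WT eyes and 1 of 6 KO eyes, then, the thermogenic carrier was plainly read.

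Ucp2 varied far less but had the same 4 libraries on top. It was at 176, 144, 109.7, 175 and 127 CPM in WT and at 94.9, 125 and 152 CPM at the lowest, median and highest KO library. The 4 libraries spanned 144 to 176 CPM and the other 7 spanned 94.9 to 136 CPM. Ucp3 was at 30.2, 15.7, 2.24, 16.1 and 10.4 CPM in WT and at 1.61, 4.30 and 19.7 CPM at the lowest, median and highest KO library. WT replicate 5 was the highest of the other 7, so that for Ucp3 the fall from the 4 libraries to the rest was gradual. Ucp2 and Ucp3 are neighbours on chromosome 7, 6904 bases apart on the same strand. Reads of Ucp2 cannot be told from those of Dnajb13, which overlaps 305 of its exonic bases on the other strand, but Dnajb13 had no more than 14 counts in any library.

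The brown fat genes Cidea and Slc36a2 repeated the picture of Ucp1 at a shallower contrast. Cidea, a protein of lipid droplets, was at 21.8, 17.2, 0.948, 8.21 and 1.32 CPM in WT and at 0.863, 1.44 and 27.5 CPM at the lowest, median and highest KO library. Slc36a2, a proton-coupled amino acid transporter of the brown fat cell surface, was at 18.6, 11.8, 1.08, 6.01 and 1.98 CPM in WT and at 0.660, 1.10 and 10.02 CPM at the lowest, median and highest KO library. Outside the 4 libraries Cidea did not exceed 2.00 CPM or Slc36a2 1.98 CPM. Both were read in every library, with at least 22 counts for Cidea and 17 for Slc36a2, whereas Ucp1 sank to 2 counts.

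The genes did not rank the 4 libraries alike. Ucp1 was highest in WT replicate 2, Slc36a2, Ucp2 and Ucp3 in WT replicate 1, and Pparg and Cidea in KO replicate 1. WT replicate 1 held 18.6 CPM of Slc36a2 and 11.4 CPM of Ucp1, and WT replicate 2 held 11.8 and 40.2 CPM. The sex-linked transcript divided these libraries, since Xist was high in WT replicate 1 and low in WT replicates 2 and 4 and KO replicate 1. The library series divided them too, with 3 in the mouse-number series and WT replicate 4 in the age series.

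Prdm16, the regulator that directs precursors to the brown fat fate, did not share this pattern. It was at 15.04, 12.9, 13.3, 30.5 and 15.7 CPM in WT and at 12.3, 14.8 and 17.8 CPM at the lowest, median and highest KO library. The level stood out in WT replicate 4 alone, the library with the most lens signal. The part of that signal in the Prdm16 level was not tested. The antisense gene B230104I21Rik shares 109 exonic bases with Prdm16 and had no more than 2 counts.

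Elovl3, an elongase of very long fatty acids found in brown fat and in sebaceous glands, was read strongly in a single eye. Its counts were 3, 8, 1, 26 and 0 in WT and 741, 1, 10, 0, 0 and 2 in KO. KO replicate 1 was at 37.1 CPM, WT replicate 4 at 1.30 CPM and every other library at or below 0.430 CPM. In the 3 libraries without a count, the limit that a count of 0 allows is 0.124 CPM (WT replicate 5), 0.129 CPM (KO replicate 4) and 0.118 CPM (KO replicate 5), for counting error only. WT replicate 2 thus combined the highest Ucp1 with 8 counts of Elovl3. Elovl3 shares 10 exonic bases with Pitx3 on the other strand, and Pitx3 had no more than 128 counts in any library.

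**Figure D2:**
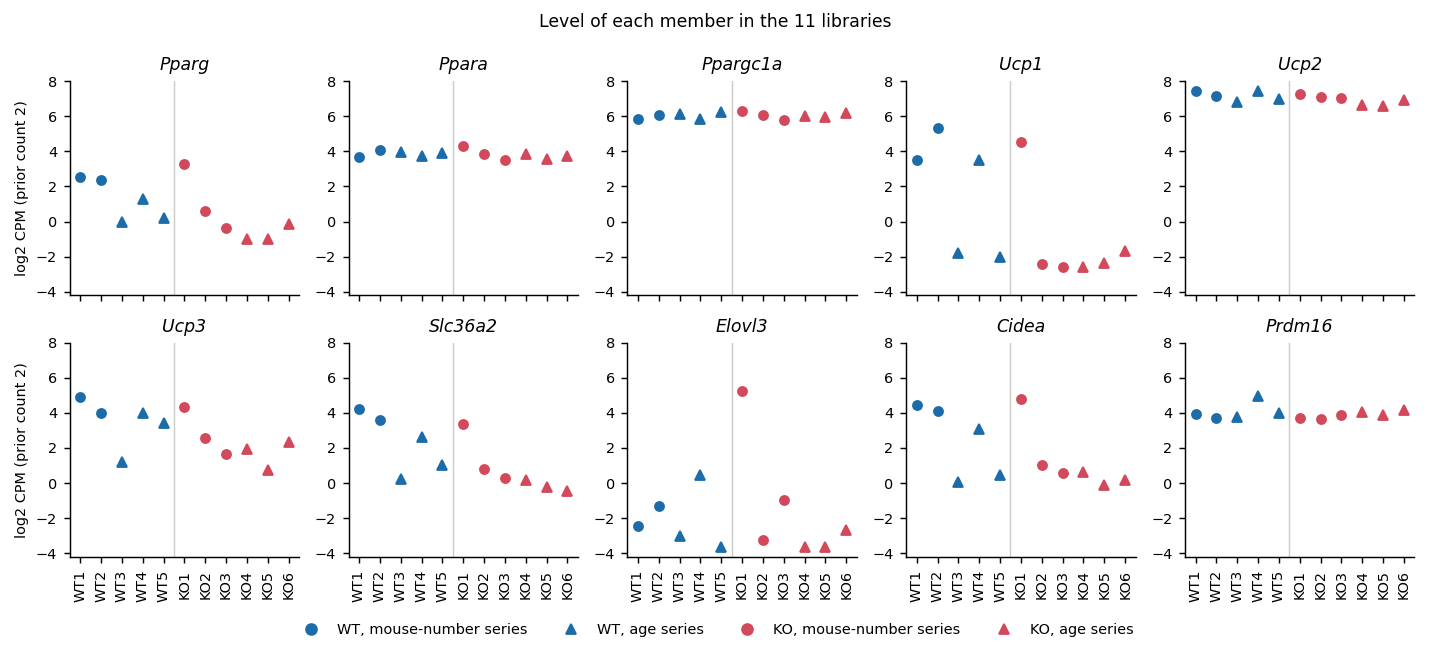
Level of each gene in WT replicates 1 to 5 (blue) and KO replicates 1 to 6 (red), as log2 CPM with a prior count of 2, with circles for the mouse-number series and triangles for the age series. Pparg, Ucp1, Ucp3, Slc36a2 and Cidea are high in WT1, WT2, WT4 and KO1, Elovl3 is high in KO1 alone and Prdm16 in WT4 alone.

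In 6 of the 10 genes, WT replicates 1, 2 and 4 and KO replicate 1 were the 4 highest libraries (Pparg, Ucp1, Ucp2, Ucp3, Slc36a2 and Cidea). Among the 8 that passed the expression filter, at least 1 CPM in 5 or more libraries, 5 had these libraries on top, and among all 15767 genes that passed it the share was 5.58%. These are counts over genes read in the same 11 libraries and carry no test. Ucp1, with 4 libraries at 1 CPM or more, and Elovl3, with 2, were below the filter.

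The comparison of the genotypes asked whether loss of miR-211 altered these genes in the eye. Nothing passed the test: in a likelihood-ratio test in edgeR over all 15767 genes, 0 of the 8 tested genes had an adjusted p under 0.1, the threshold used, and 0.00634% of all tested genes did. Slc36a2 alone had an unadjusted p under 0.05, as did 2.09% of all genes, and a quasi-likelihood test in edgeR gave 0 of 8. In 7 of the 8 genes the estimate was lower in KO, against 48.9% of all genes, and the median log2 fold change (KO minus WT) was -0.35 over the 8 genes and 0.0027 over all. No gene of the 10 had genotypes that did not overlap, which 0.184% of all tested genes had.

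Slc36a2 had the estimate farthest below 0 among the 8, with a log2 fold change of -1.63 (SE 0.83), an unadjusted p of 0.0488 and an adjusted p of 0.9999 by edgeR. Its mean was 7.90 CPM ± 7.34 (SD, n = 5) in WT and 2.56 CPM ± 3.67 (SD, n = 6) in KO, and 5 of 6 KO libraries lay below the WT median. Ucp3 had a log2 fold change of -1.21 (SE 0.65) and means of 14.9 CPM ± 10.2 (SD, n = 5) in WT and 6.47 CPM ± 6.66 (SD, n = 6) in KO. For Cidea the log2 fold change was -0.79 (SE 1.00), for Pparg -0.44 (SE 0.82), for Ucp2 -0.26 (SE 0.17) and for Prdm16 -0.24 (SE 0.23). The values of Ppara and Ppargc1a were -0.07 (SE 0.16) and 0.03 (SE 0.13). Slc36a2, Ucp3 and Pparg stand among the 63 genes that the study listed as differentially expressed at an FDR under 0.1. That list was drawn from these same libraries, so their direction is not independent evidence. In the fit used here all 3 had an adjusted p of 0.9999 by edgeR, so these calls were not reproduced. The reason for the difference was not tested.

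In a fit to all 25763 genes with a count, Ucp1 had a log2 fold change of -1.65 (SE 1.49) and Elovl3 one of 4.15 (SE 2.16), each with an adjusted p of 0.9996 by edgeR, beside 0.00776% of genes under 0.1. The sign for Elovl3 came from 1 library. Mean Ucp1 was 12.7 CPM ± 16.4 (SD, n = 5) in WT and 3.98 CPM ± 9.44 (SD, n = 6) in KO, with 5 of 6 KO libraries below the WT median. A two-sided exact permutation test of log2 CPM over all 462 assignments of the libraries, run for each of the 10 genes, gave unadjusted p-values from 0.0974 for Slc36a2 to 0.859 for Elovl3. That for Ucp1 was 0.136, as was that for Ucp3, and the smallest p the design allows is 0.00216. In bulk RNA, fewer cells of a type and less RNA per cell cannot be told apart.

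KO replicate 1 decided several of these values. Without it, Slc36a2 was lower in KO, with a log2 fold change of -2.88 (SE 0.69) and an adjusted p of 0.0463 by edgeR, while 0.0701% of all tested genes passed. The values of Cidea, Pparg and Ucp3 moved to -2.85, -1.96 and -1.96, with adjusted p-values of 0.171, 0.275 and 0.254 by edgeR. At an unadjusted p under 0.05 there were then 5 of 8 genes (these 4 and Ucp2, at -0.33), against 4.35% of all. In the fit to every gene with a count, Ucp1 moved to -6.59 (SE 1.31, adjusted p = 0.00448 by edgeR), where 0.105% of genes passed, and Elovl3 turned to -1.70 (SE 1.36). The removal of WT replicate 1 worked the other way, to -1.03 for Slc36a2, -0.78 for Ucp3, -0.28 for Cidea and -0.08 for Pparg, and that of WT replicate 2 brought Ucp1 to -0.51. Even without KO replicate 1, Ucp1 did not separate the genotypes, since WT replicates 3 and 5, at 0.215 and 0.165 CPM, lay among the KO libraries. KO replicate 1 is not set apart by any label, and its removal was 1 of 11 such removals, the only one after which any of these genes passed.

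Within each library series the direction of the 4 most variable filtered genes was the same. In the age series alone (3 against 3) the log2 fold changes were -1.34 for Pparg, -1.48 for Ucp3, -1.85 for Slc36a2 and -1.61 for Cidea, and these 4 genes had unadjusted p-values under 0.05, as did 4.12% of all genes. In the mouse-number series alone (2 against 3) they were -0.46, -1.27, -1.83 and -0.92, and Slc36a2 alone was under 0.05, as were 3.27% of all genes. Every adjusted p for these genes was at least 0.469 in these fits. With the series as a covariate over all 11 libraries, Slc36a2 (-1.85), Ucp3 (-1.39) and Ucp2 (-0.30) had unadjusted p-values under 0.05 against 6.57% of all genes, and the smallest adjusted p was 0.312. Elovl3 turned to -1.25 (SE 3.02) under the covariate. For none of the 8 filtered genes did the genotype difference pass a test of its difference between the series, with adjusted p-values of the interaction of 0.9996 by edgeR. Ucp1 was at -4.66 (SE 1.56) in the age series and -1.72 (SE 1.78) in the mouse-number series, and Elovl3 at -3.81 (SE 2.04) and 5.82 (SE 2.48). The difference between the series was not tested for these 2 genes.

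**Figure D3:**
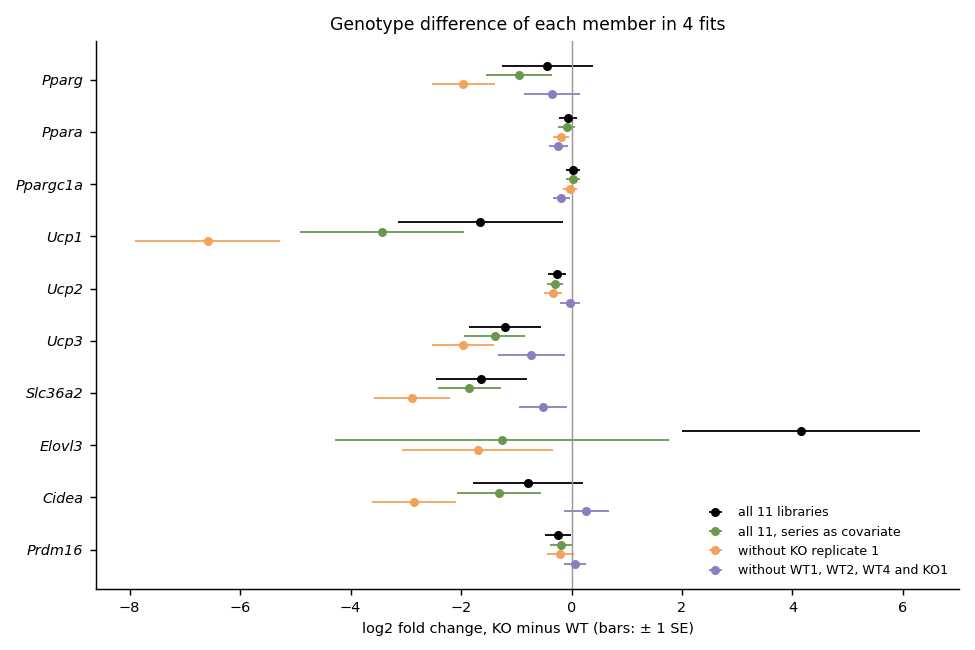
log2 fold change (KO minus WT) with its SE in up to 4 fits a gene: all 11 libraries, all with series as covariate, without KO replicate 1, and, for the 8 filtered genes, without WT replicates 1, 2 and 4 and KO replicate 1. Ucp1, Cidea, Slc36a2 and Pparg lie farthest below 0 without KO replicate 1 (-6.59 to -1.96), Elovl3 turns from 4.15 to -1.70, and Ppara and Ppargc1a stay near 0 throughout.

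Fat cell markers moved with these genes. The sum of 12 adipocyte markers, which include adiponectin (Adipoq) and perilipin 1 (Plin1) but none of the 10 genes, was 883 CPM in WT replicate 1, 611 in WT replicate 2, 588 in KO replicate 1 and 387 in WT replicate 4. In the other 7 libraries it was 97.5 to 227 CPM. Adipoq itself was read at 41.4, 25.3, 19.3 and 9.26 CPM in those 4 libraries, in that order, and at 0.345 to 4.13 CPM in the rest. The order of the adipocyte sum and that of Slc36a2 agreed in the 4 libraries, whereas Ucp1 was highest where the sum was second. The estimate was below 0 for all 10 adipocyte markers that passed the filter, beside 48.9% of all tested genes. Their median was -1.22 on the log2 scale, beside 0.0027 over all genes. An unadjusted p under 0.05 was reached by 4 of them, against 2.09% of all tested genes. These were Retn (resistin, -0.87), Cfd (adipsin, -2.12), Lipe (hormone-sensitive lipase, -0.78) and Pnpla2 (adipose triglyceride lipase, -0.77), and no adipocyte marker had an adjusted p under 0.1.

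With the 4 libraries of the highest adipocyte sums left out, a choice made after seeing the data, 2 WT and 5 KO libraries remained. The log2 fold changes became -0.52 (SE 0.44) for Slc36a2, -0.73 (SE 0.61) for Ucp3, -0.36 (SE 0.51) for Pparg, -0.03 (SE 0.19) for Ucp2 and 0.27 (SE 0.41) for Cidea. None of the 8 genes had an unadjusted p under 0.05, against 1.83% of all tested genes. The libraries left out were also the 4 highest for Pparg, Ucp2, Ucp3, Slc36a2 and Cidea. Smaller differences in these genes were therefore built into the choice, and the fit cannot serve as a test. The part of fat cells in the genotype values was not tested.

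**Figure D4:**
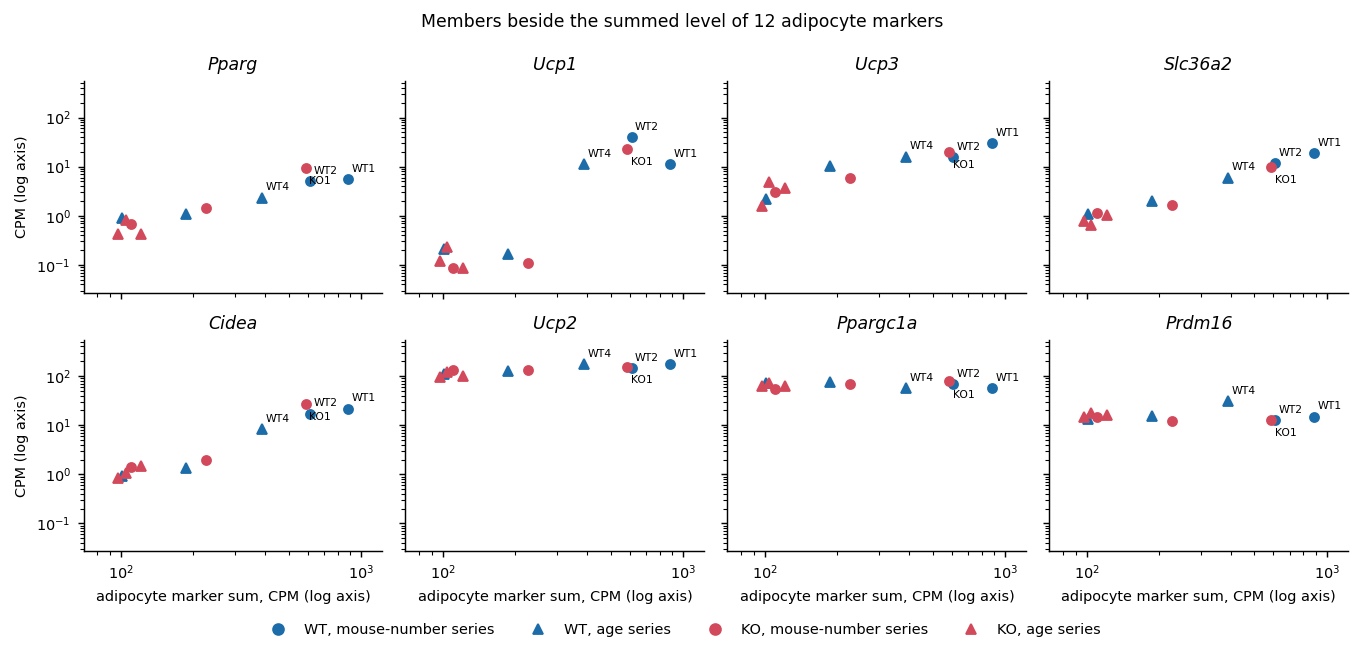
CPM of 8 of the genes against the summed CPM of the adipocyte markers in the same library, both on log axes, with colour for genotype and shape for library series. Pparg, Slc36a2 and Cidea rise with the sum from 97.5 to 883 CPM, Ucp1 jumps from at most 0.233 CPM to at least 11.4 CPM between the sums 227 and 387 CPM, and Ppargc1a stays between 54.0 and 78.0 CPM.

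Skeletal muscle, where Ucp3 is known to be expressed, also differed between the eyes. The sum of 17 muscle markers was 14334, 12698 and 13597 CPM in WT replicates 1 and 2 and KO replicate 1, 8034 CPM in KO replicate 2 and 7975 CPM in WT replicate 4, and 1480 to 4498 CPM in the other 6. All 17 had a lower estimate in KO (median log2 fold change -0.54), and none had an unadjusted p under 0.05. KO replicate 2 and WT replicate 4 had nearly equal muscle sums, while Ucp3 stood at 5.84 and 16.1 CPM and Ucp1 at 0.110 and 11.4 CPM. Beside WT replicate 5, KO replicate 2 had the higher muscle sum (8034 against 4498 CPM) and adipocyte sum (227 against 187 CPM). Ucp3 was lower in KO replicate 2 than in WT replicate 5 (5.84 against 10.4 CPM). Other pairs went the other way. KO replicate 4 exceeded WT replicate 3 in muscle sum (3873 against 1754 CPM), adipocyte sum (122 against 101 CPM) and Ucp3 (3.70 against 2.24 CPM). Such pairs were picked from many and carry no test. Macrophage and microglia markers, relevant to Ucp2, summed to 346 CPM in WT replicate 1 and to 119 to 172 CPM in the other 10. Of 13, 12 were lower in KO, with C1qb and C1qc at an unadjusted p under 0.05 and none at an adjusted p under 0.1. Over all tested genes 48.9% were lower and 2.09% under 0.05. The part of muscle and of macrophages in these values was not tested.

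The partners of the receptors were nearly level. Of 24 partners and coregulators of PPARs, among them the RXR receptors, Ppard and the corepressors, 12 had lower and 12 higher estimates, with a median of -0.01. Cebpd, a transcription factor of early fat cell differentiation, was the only one with an unadjusted p under 0.05 (log2 fold change -0.85, SE 0.40). A single library stood apart for Cebpd, WT replicate 1 at 47.4 CPM, beside 5.77 to 16.5 CPM elsewhere. Cebpa, Cebpb and Ebf2 had values of -0.93, -0.59 and -0.53. The sum of the 24 partners varied from 1346 to 1699 CPM across all 11 libraries.

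The estimates of known PPAR targets were mostly below 0. Of the 32 that passed the filter out of 36, 30 had a lower estimate in KO (median log2 fold change -0.41), and 3 had an unadjusted p under 0.05, where 48.9% and 2.09% of all tested genes did. None had an adjusted p under 0.1. The 3 were Pdk4, the kinase that turns off pyruvate dehydrogenase (-1.81, SE 0.71), Angptl4, an inhibitor of lipoprotein lipase (-0.93, SE 0.47), and Cpt2, a carnitine transferase of mitochondrial fatty acid import (-0.60, SE 0.28). For Cpt2, WT replicate 4 stood apart at 73.7 CPM, beside 21.8 to 39.8 CPM in the other libraries. Plin1 had a value of -2.07. Of the 12 adipocyte markers, 6 are also among these targets. The sum of the targets was 2110 to 3086 CPM in the 4 libraries with high Ucp1 and 1160 to 1693 CPM in the other 7.

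The genotype estimates of other brown and beige fat genes were less uniform. Of 18, 13 passed the filter and 10 had a lower estimate (median -0.14), beside 48.9% of all tested genes. None had an unadjusted p under 0.05. Those with the smallest p were Acot11 (-0.16), Clic5 (-0.96), Cox8b, a muscle and brown fat subunit of cytochrome oxidase (-0.73), and Ebf2 (-0.53). The sum of the 18 genes was 318 to 413 CPM in the 4 libraries with high Ucp1 and 175 to 278 CPM in the other 7. Of the 10 mitochondrial carriers related to the uncoupling proteins, 6 had a lower estimate (median -0.10) and none an unadjusted p under 0.05. Slc25a30, a close relative of the uncoupling proteins, had the smallest p (0.0529, log2 fold change -0.30).

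The library that alone held much Elovl3 was also highest for some oil gland genes, but not for all. Scd3, a fatty acid desaturase of sebaceous glands, was at 144 CPM in KO replicate 1 and at 2.54 to 4.55 CPM in the other 10. Mogat1 was at 38.1 CPM there against 4.001 to 5.86, Far2, a reductase that makes wax alcohols, at 31.7 against 5.02 to 10.6, and Elovl4 at 290 within a range of 226 to 391 CPM. Dgat2l6, named after its values were seen, was at 38.0 CPM in KO replicate 1 and at no more than 0.172 CPM elsewhere. Cyp4a10, named likewise but from the PPAR targets and not the gland list, was at 16.9 CPM against at most 0.258 CPM. Krt79 and Mc5r were also highest in KO replicate 1, at 2.91 and 1.45 CPM. Awat2 was not, at 0.702 CPM within a range of 0.621 to 1.29 CPM. Awat1, a defining wax synthase, was at 0 in 10 libraries, KO replicate 1 included, and the whole list of 11 summed to 1092 CPM in KO replicate 1 within a range of 476 to 1319 CPM set mainly by the keratins Krt4 and Krt13. The part of gland tissue in the Elovl3 value was not tested.

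**Figure D5:**
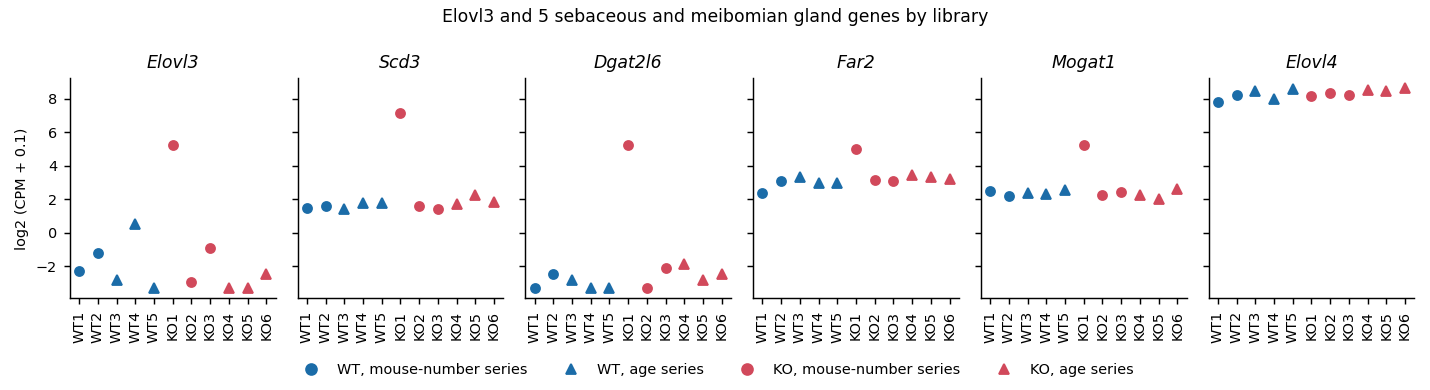
log2 of CPM plus 0.1 for Elovl3 and 5 sebaceous and meibomian gland genes in each library, with colour for genotype and shape for library series. KO1 stands above all other libraries for Elovl3 (37.1 CPM), Scd3 (144 CPM), Dgat2l6 (38.0 CPM), Far2 (31.7 CPM) and Mogat1 (38.1 CPM), but not for Elovl4.

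Among the filtered genes of the set, log2 CPM of Slc36a2 and Cidea varied most alike over the 11 libraries (Pearson r = 0.97), and Pparg, Ucp3, Slc36a2 and Cidea had r of 0.89 to 0.97 with each other. Ppara followed Ppargc1a (r = 0.72) more closely than Pparg (r = 0.61), and Prdm16 had r of -0.40 to 0.30 with the other 7. These are descriptions over libraries of which 4 lie apart, with shared libraries and scaling. Across all expressed genes, the closest to Slc36a2 were the fat cell genes Pnpla2 and Fabp4 (both r = 0.99) and Cd300lg (r = 0.98). Fem1a (r = 0.98) and Cebpa (r = 0.97) were among the closest to Cidea, and Pparg was closest to Alas1 (r = 0.98), Dhrs11 and Sod2 (both r = 0.96). Ucp3 was closest to Nfe2l1 (r = 0.98), Pdk4 and Asb2 (both r = 0.98). Ucp2 was closest to Hspe1 (r = 0.98), Hcar1 and Derl1 (both r = 0.97). The nearest gene was Pdpr for Ppara (r = 0.88), Wdr48 for Ppargc1a (r = 0.94) and Nploc4 for Prdm16 (r = 0.95). No filtered gene of the set shared any of its closest genes with another.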

How the data were processed

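Total RNA was made into libraries with a TruSeq RNA kit, which does not mark strand, and read as pairs of 100 bases. According to the submitters' processing notes and the study's methods, the authors estimated gene abundance with RSEM 1.2.19 and deposited, per library, an expected count and an FPKM for each of 38393 genes. Symbols were found for 95.4% of identifiers. Expected counts were rounded and fitted in edgeR 4.0.16 (R 4.3.3) with TMM factors (0.864 to 1.05), keeping genes of at least 1 CPM in 5 or more libraries. The generalized linear model follows the study's methods and the likelihood-ratio test follows a column of its table, with Benjamini-Hochberg adjustment over all 15767 genes and a threshold of 0.1. The SE is the log2 fold change divided by the normal deviate of its p. FPKM compared levels between genes and was not tested. Library series were taken from column names of the study's table, each matched to a library by a constant ratio over 63 genes (coefficient of variation at most 0.190%, next best at least 24.5%). That table's fold changes and p-values were not used.

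The fits were tested on simulated data with the same spread for every gene and no outlying library. That simulation does not cover genes as uneven between libraries as several of these. Depth was 20282241 to 36317673 counts, intervals and floors cover counting error only, and nothing says that replicates are separate litters, so p-values measure the spread between these animals. The 10 genes and all gene lists were chosen with earlier results of these data known. Named from each list were the 4 genes with the smallest p and defining markers at 0, and for each filtered gene of the set the 3 genes of highest r, of which 1 is not reported here. Promoter windows, miRNAs (RefSeq, GRCm38.p6) and 3′ untranslated regions (Gencode M21) came from reference tables. DESeq2 1.42.0, other scalings and filters, a replicate block, the series and single left-out libraries were tried as alternatives.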

Additional observations from a re-analysis of the deposited data

Results flagged for a closer look

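In 10 of the 20 groups examined (10 genes in each genotype), 1 library lay farther from its group than Dixon's 95% critical value allows. Chance flags about 1 group in 20 where values are normally distributed and groups independent. Here CPM was not transformed and several genes varied together in the same libraries, so that rate is no measure for these flags. For Ppara in KO the ratio barely passed (0.6258 against 0.625). In KO, replicate 1 was that library for 7 genes: Pparg (9.52 CPM), Ppara (19.7 CPM), Ucp1 (23.2 CPM), Ucp3 (19.7 CPM), Slc36a2 (10.02 CPM), Elovl3 (37.1 CPM) and Cidea (27.5 CPM). In WT, replicate 2 stood apart for Ucp1 (40.2 CPM), and replicate 4 for Elovl3 (1.30 CPM) and for Prdm16 (30.5 CPM). In each case the library was the highest of its group.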

How the results depend on the processing

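Single libraries limit these values most. With 1 library left out, the count of the 8 filtered genes at an unadjusted p under 0.05 ran from 0 to 5, that at an adjusted p under 0.1 from 0 to 1 and that lower in KO from 7 to 8. The unadjusted count, 1 as reported, was 0 with the quasi-likelihood test or without the 4 libraries of highest adipocyte sums, 3 with the series as covariate and 4 in the age series alone. Same-numbered libraries correlated at -0.33 to 0.63, over 0.1 in 3 of 5 pairs. This cannot tell whether the numbers pair animals, because libraries of 1 series also correlated without a shared number. WT replicate 3 and KO replicate 5, for example, correlated at 0.73. With a replicate block (KO replicate 6 left out) the unadjusted count was 3. The number lower in KO lay between 6 and 8 in all alternatives run (8 of 10 with every gene with a count tested), and no gene had an adjusted call except without KO replicate 1. Leaving out single libraries moved the log2 fold change from -0.027 to 0.084 for Ppargc1a, -1.70 to 5.65 for Elovl3, -0.33 to 0.062 for Prdm16, -2.88 to -1.03 for Slc36a2, -1.96 to -0.78 for Ucp3, -2.85 to -0.28 for Cidea, -1.96 to -0.08 for Pparg and -6.59 to -0.51 for Ucp1, and the exact permutation p from 0.444 to 0.944, 0.373 to 0.981, 0.333 to 0.794, 0.0238 to 0.229, 0.0333 to 0.262, 0.127 to 0.543, 0.0397 to 0.448 and 0.0238 to 0.367 in that order. The sign also turned for Ppara in the mouse-number series (0.013), for Ppargc1a with the replicate block (-0.0053), in the age series (-0.019) and without the 4 libraries (-0.19), for Elovl3 with the covariate (-1.25) and in the age series (-3.81), and without the 4 libraries for Cidea (0.27) and Prdm16 (0.062). Apart from fewer libraries, the cause was not tested. Ucp1 and Elovl3 were not run in DESeq2, with the filter of 10 counts in every library or without the 4 libraries, and levels per deposited effective length were not run. At 2 to 6 counts, as for Ucp1 in 7 libraries, no difference was detectable at this depth.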
